A study of Sus scrofa with 59 samples.

Results

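ACTA2, RGS5 and TAGLN are marker genes of the mural cells, the smooth muscle cells and pericytes that wrap blood vessels. They were chosen by their gene symbol in the platform annotation and are 3 of the 6765 genes that the array measured under a single symbol. All 3 were among the 4928 genes bright enough to be tested. They were followed here across the longissimus dorsi, the long muscle of the back, of 59 pigs, together with endothelial, matrix and adipocyte genes.

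Mural cells control the width of small vessels and stabilise the endothelium inside them. Smooth muscle cells of arteries and arterioles hold a contractile apparatus in which ACTA2 encodes the smooth muscle alpha-actin and TAGLN encodes transgelin, an actin-binding protein of the calponin family also called SM22. Activated fibroblasts can make both proteins as well. RGS5, a regulator of G-protein signalling, dampens signals from vasoconstrictor receptors and is a common marker of pericytes, the mural cells of capillaries.

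The 59 pigs came from a cross named LD/LW x Duroc and were 170 days old. Per the labels, the animals were housed as a single herd and fed freely, and the muscle was frozen at slaughter. Each pig gave total RNA for 1 Affymetrix porcine array. The pigs formed 1 group, since the labels used here tie no treatment, trait value, sex or array batch to a pig, and the number of a pig only names its array. A value is the deposited normalised signal of a probe set, read as log2, so that a difference of 1 is a doubling on that scale. No sequence of a probe or transcript was available for printing.

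Array medians lay between 6.23 and 6.30, and the correlation of any 2 arrays over all probe sets lay between 0.968 and 0.995. The skeletal muscle genes CKM, MYH2, MYH7 and TNNT3 had means from 14.29 to 14.72, among the brightest on the array. Of the defining smooth muscle genes, CNN1, MYL9, SMTN, CALD1 and ACTG2 passed the filter on dim probe sets (a mean of at least 6.27). MYLK had a mean of 5.74 and fell below that filter, as did the pericyte gene MCAM at 6.19, while PDGFRB and KCNJ8 passed. MYH11, LMOD1, CSPG4, NOTCH3 and ABCC9 were not named in the annotation used. In bulk muscle, fewer cells of a type and less RNA per cell cannot be told apart.

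ACTA2 ranged from 10.66 in pig 2 over a median of 11.42 to 13.36 in pig 19, a 6.49-fold span. Its mean was 11.48 with an SD of 0.50 (n = 59). Most pigs lay close together, with the middle of the distribution between 11.19 (lower quartile) and 11.62 (upper quartile), and a tail reached upward: pig 12 had 13.11 and pig 45 had 12.49. The SD of ACTA2 was larger than that of 95.5% of tested genes, whose median SD was 0.197.

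TAGLN had the same shape. It ranged from 7.72 in pig 70 over a median of 8.24 to 10.21 in pig 19, a 5.59-fold span, with a mean of 8.40 and an SD of 0.50 (n = 59). Pig 12 was again next, at 9.92, followed by pig 44 at 9.55. The SD exceeded that of 95.6% of tested genes.

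RGS5 varied less and had other pigs at its top. It ranged from 10.12 in pig 15 over a median of 10.77 to 11.70 in pig 21, a 2.99-fold span, with a mean of 10.79 and an SD of 0.31 (n = 59), above that of 81.8% of tested genes. The next highest pigs were pig 72 at 11.61 and pig 12 at 11.48. Pig 19, highest for ACTA2 and TAGLN, was 50th of 59 for RGS5, and pig 12 was the single animal among the 3 highest for all 3 genes.

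**Figure D1:**
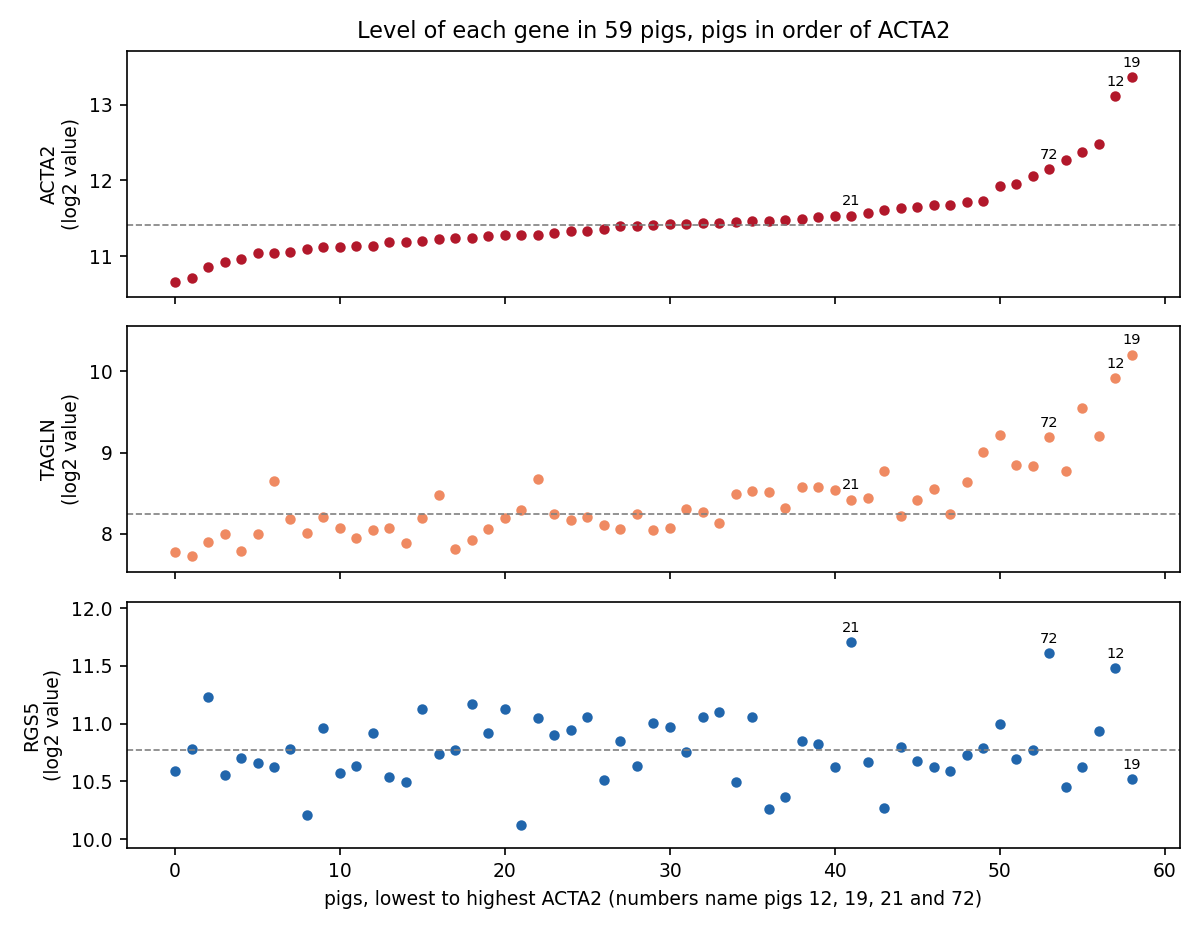
Level of ACTA2, TAGLN and RGS5 (log2 value, 1 panel a gene) in each of the 59 pigs, with the pigs placed from lowest to highest ACTA2 in every panel and the dashed line at each gene's median. TAGLN climbs along the same order up to pigs 12 and 19, while RGS5 shows no such order and is highest in pigs 21 and 72.

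ACTA2 and TAGLN moved together across pigs and RGS5 moved with neither. Pearson's r between ACTA2 and TAGLN was 0.909 (95% interval 0.851 to 0.945, n = 59), with Spearman's rho 0.825. The permutation p was 1e-05, the smallest that 100000 resamples can give, and 6.75e-05 after Benjamini-Hochberg adjustment over the 27 relations of this family: 3 gene pairs, 12 gene and score pairs and 12 differences between them. Without pigs 19 and 12, the 2 farthest from the ACTA2 median, r was 0.846. Of the 10 pigs highest for ACTA2, 9 were also among the 10 highest for TAGLN, and 6 were shared among the 10 lowest.

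For ACTA2 and RGS5, r was 0.129 (95% interval -0.131 to 0.373, n = 59, adjusted permutation p = 0.522) and rho was 0.040. For TAGLN and RGS5, r was 0.112 (95% interval -0.148 to 0.358, n = 59, adjusted permutation p = 0.594) and rho was -0.0067. Neither passed the threshold, and the intervals still hold moderate relations. Of the 10 highest pigs for RGS5, 2 were among the 10 highest for ACTA2 and 2 among those for TAGLN.

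**Figure D2:**
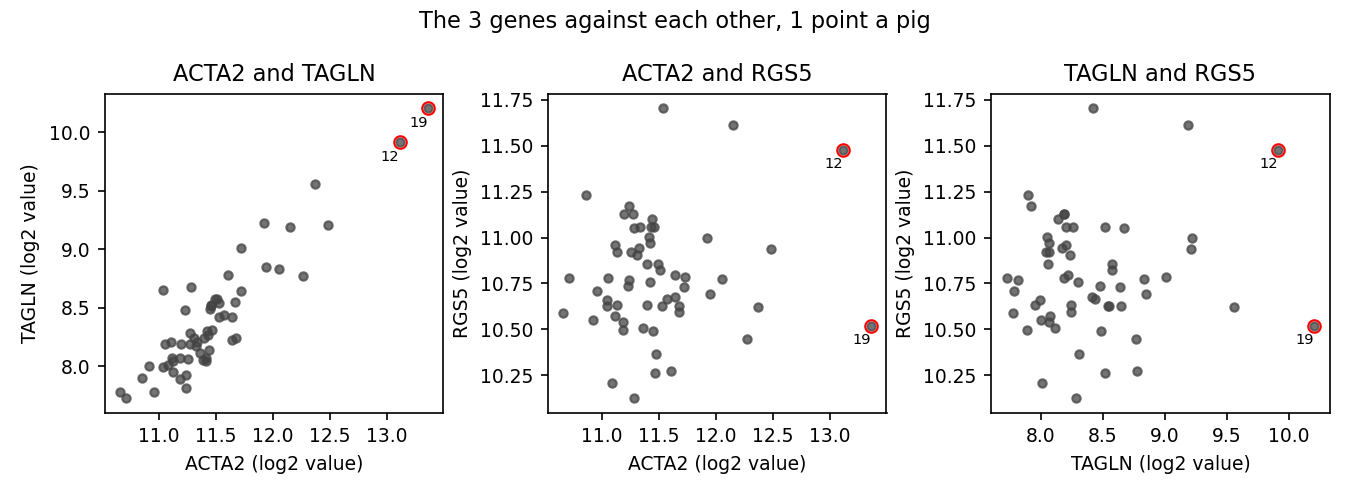
Each gene of a pair against the other (log2 values on both axes), 1 point a pig, with pigs 12 and 19 circled. ACTA2 and TAGLN form a band (r = 0.909), and both plots with RGS5 are a cloud (r = 0.129 and 0.112).

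Some pigs departed from the shared course of ACTA2 and TAGLN. Pig 36 had ACTA2 at 11.04, which is 0.881 SD below the mean, and TAGLN at 8.65, which is 0.489 SD above it. Pig 16 stood the other way, with ACTA2 at 12.27 (1.59 SD above the mean) and TAGLN at 8.77 (0.735 SD above). Pig 16 was also 54th for RGS5.

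Every other tested gene was next regressed on each of the 3 genes with limma, and a slope is given as the change in log2 value per SD of ACTA2, TAGLN or RGS5. A gene was called when its adjusted p, taken over all probe sets tested, was at most 0.05. With 1 probe set a gene, 155 genes were higher where ACTA2 was higher (3.15% of 4927) and 7 were lower (0.142%). For TAGLN the counts were 143 higher (2.9%) and 8 lower (0.162%), and for RGS5 99 higher (2.01%) and 35 lower (0.71%). Of the genes called higher with ACTA2 and with TAGLN, 102 were shared, 65.8% of the former and 71.3% of the latter. With RGS5, ACTA2 shared 10 (6.45% of its own, 10.1% of those of RGS5) and TAGLN shared 6 (4.2% and 6.06%).

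These totals depended on a few animals. Leaving out the pigs named below lowered the number called higher for ACTA2 and RGS5 and raised it for TAGLN. Over probe sets, 366 of 11999 were called higher with ACTA2 (3.05%) and 10 lower (0.0833%), and 169 higher without pigs 12 and 19. With TAGLN, 341 were called higher (2.84%) and 18 lower (0.15%), against 690 and 459 without the same pigs. With RGS5, 204 were called higher (1.7%) and 82 lower (0.683%), and 72 higher without pigs 21 and 72, its 2 farthest from the median.

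Among the 8 genes most like ACTA2, TAGLN led, and after it came CALD1, caldesmon, which regulates actin and myosin contact in smooth muscle. CALD1 ranged from 9.50 over a median of 9.86 to 10.88, with pig 19 highest and pig 12 at 10.75. Its r with ACTA2 was 0.854 over the 59 pigs and its slope 0.24 ± 0.020 (SE), with limma's adjusted p = 1.9e-14. MYL6, a myosin light chain of smooth and non-muscle cells, had r = 0.792, and FLNA, the actin crosslinker filamin A, had r = 0.770. FHL2, a LIM-domain cofactor of muscle genes, had the steepest slope of those most alike apart from TAGLN: it spanned 5.77 to 8.70, again highest in pig 19, with a slope of 0.36 ± 0.043 (limma adjusted p = 6.9e-09).

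GJA5 and JAG1 were also among the 8. GJA5, a connexin of arterial endothelium, had r = 0.750 with ACTA2, and JAG1, a Notch ligand through which endothelium instructs smooth muscle, had r = 0.747. GJA5 was highest in pig 44 at 8.24, with pig 12 at 8.10 and pig 19 at 7.55, so its order at the top differed from that of ACTA2. SEPT2, a septin of the cytoskeleton, closed the 8 with r = 0.715. None of these 8 lost its call in any alternative processing or with any single pig left out.

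The genes most opposed to ACTA2 were TAF9, PSMD5, AUP1 and FAM32A, with r between -0.475 and -0.440. All 4 lost their call without pigs 12 and 19.

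TAGLN had nearly the same companions, with ACTA2 at the head. MYL6 had r = 0.830 with TAGLN, CALD1 0.805, FLNA 0.780, GJA5 0.771, FHL2 0.724 and JAG1 0.719. WFDC1, a secreted protein with a whey acidic protein domain, was the newcomer at r = 0.785, with a slope of 0.29 ± 0.030 (limma adjusted p = 1.0e-10). WFDC1 spanned 6.81 to 8.28, with pig 19 highest and pig 12 at 8.10. The genes most opposed to TAGLN were OSGEP, CCDC28A, ZNHIT1 and SNU13, with r between -0.462 and -0.432.

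None of the 8 genes most like RGS5 was among those of ACTA2 or TAGLN. CDH5, the cadherin of endothelial cell junctions, came first with r = 0.712 over the 59 pigs. CDH5 ran from 8.41 in pig 66 over a median of 9.04 to 9.96 in pig 21, with pig 72 at 9.85, and its slope was 0.20 ± 0.026 (SE, limma adjusted p = 9.7e-07). TSPAN13, a tetraspanin, had r = 0.685, and LXN, latexin, had r = 0.670 and the steepest slope at 0.30 ± 0.044 (limma adjusted p = 6.9e-06). LXN reached 9.27 in pig 21 against a median of 7.65.

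CAVIN2, a coat protein of the caveolae that are dense in endothelium, had r = 0.664 with RGS5. GNG11, a G-protein gamma subunit, had r = 0.641, HIGD1B, a marker of pericytes, 0.616, MECOM, a transcription factor, 0.607 and LPAR6, a receptor for lysophosphatidic acid, 0.600. The calls of these 8 held in every alternative processing and with any single pig left out. Those most opposed to RGS5 were GTF2B, GTPBP4, PI4KB and NARF, with r between -0.560 and -0.498. NARF lost its call without pig 72, and PI4KB without both pigs 21 and 72.

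Some probe sets with no single symbol followed the 3 genes as closely as any named gene. The closest one reached r = 0.950 with ACTA2 and another reached 0.909 with TAGLN and 0.917 with ACTA2, while the closest to RGS5 had r = 0.756. They are not named here, and counts of probe sets may include some that measure the 3 genes themselves.

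The other smooth muscle genes were called mainly with ACTA2 and TAGLN. Of the 7 tested genes, 4 were called higher with ACTA2, 4 with TAGLN and 1 with RGS5, and none lower. The share of all genes called higher was 3.15%, 2.9% and 2.01%. The median slope was 0.13 for ACTA2, 0.11 for TAGLN and 0.030 for RGS5, beside medians of -0.0027, -0.0013 and -0.0017 over all genes. CALD1, MYL9 and CNN1 were called with both ACTA2 and TAGLN. MYL9, the regulatory light chain of smooth muscle myosin, had a slope of 0.13 ± 0.019 on ACTA2 (limma adjusted p = 4.5e-06) and 0.11 ± 0.021 on TAGLN (0.00032), and was highest in pig 19.

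CNN1, calponin of differentiated smooth muscle, ranged from 6.91 to 8.75 and was highest in pig 12, with pig 19 at 8.70. Its slope was 0.17 ± 0.050 on ACTA2 (limma adjusted p = 0.034) and 0.21 ± 0.047 on TAGLN (0.0031), and both calls were lost without these 2 pigs. SMTN, smoothelin of contractile smooth muscle, was called with ACTA2 (slope 0.13, adjusted p = 0.0052) and at 0.046 with RGS5. Without pigs 12 and 19 both of these SMTN calls were lost, and the call with RGS5 also when any of 33 single pigs was left out. TPM4, a tropomyosin, was called with TAGLN (0.16, 0.0061) and not with ACTA2 (0.13, 0.066). Its dimmer probe set was called with both ACTA2 (0.13, limma adjusted p = 0.0077) and TAGLN (0.15, 0.0025). ACTG2, the smooth muscle gamma-actin and a close relative of ACTA2, had r = 0.297 with ACTA2 and 0.206 with TAGLN and was not called with either. KCNMB1, a potassium channel subunit, had r of -0.087 with ACTA2 and 0.035 with RGS5.

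In the pericyte list most calls were with RGS5. Of 5 tested genes, 4 were called higher with RGS5, 1 with ACTA2 and 1 with TAGLN, and the median slope was 0.12, 0.050 and 0.050. Among all genes, 2.01%, 3.15% and 2.9% were called higher. HIGD1B had a slope of 0.15 ± 0.026 on RGS5 (limma adjusted p = 8.7e-05) against 0.013 on ACTA2 and 0.025 on TAGLN. KCNJ8, a potassium channel subunit of pericytes, had 0.12 ± 0.024 on RGS5 (0.0011), and ran from 5.85 to 6.77, near the filter on dim probe sets.

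GUCY1B3, a subunit of the nitric oxide receptor of mural cells, was called with all 3, with slopes of 0.12 on RGS5, 0.11 on ACTA2 and 0.10 on TAGLN, and the last 2 calls were lost without pigs 12 and 19. PDGFRB, the receptor that recruits pericytes, was called with RGS5 at 0.082 ± 0.023 (limma adjusted p = 0.044). That call was lost when any of 16 single pigs was left out, pigs 21 and 72 among them, and the dimmer PDGFRB probe set had r = -0.277 with the brighter. GJA4, a connexin, had a slope of 0.064 on RGS5 with adjusted p = 0.12.

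Whether a gene followed one marker more than another was tested directly, as its slope on the difference of the standardised markers. Such a slope is given per unit of that difference. On ACTA2 minus RGS5, 58 genes were higher (1.18%) and 27 lower (0.548%). CALD1 (0.11 ± 0.024, limma adjusted p = 0.010) and MYL9 (0.068 ± 0.017, 0.027) followed ACTA2 more, and HIGD1B (-0.081 ± 0.023, 0.048) followed RGS5 more. FLNA, FHL2, CNN3, COL5A1 and TGFB3 also followed ACTA2 more. Whether these calls, and those of CALD1, MYL9 and HIGD1B, held with pigs left out was not examined gene by gene. HIGD1B was the only pericyte gene of 5 to pass, and on TAGLN minus RGS5 limma called none of the 5 (1 at an unadjusted p under 0.05). Over all genes, the steepest toward ACTA2 after TAGLN were the complement genes C4A and C1S, AGT, which encodes angiotensinogen, and EZR, which encodes the membrane and actin linker ezrin. EZR had 0.18 ± 0.031 (limma adjusted p = 0.0016) and kept its call without pigs 12 and 19, which C4A, C1S and AGT did not.

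The steepest toward RGS5 were TRNP1, LXN, CALCR, FAM162B and TSPAN13. TRNP1, a nuclear protein, ran from 6.70 in pig 19 to 9.35 in pig 72 and had a slope of -0.17 ± 0.033 on ACTA2 minus RGS5 (limma adjusted p = 0.0039). All 5 lost their call without pigs 12 and 19. Over probe sets, 113 higher (0.942%) and 52 lower (0.433%) became 20 and 9 without them, and 24 and 11 without pig 19 alone.

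On TAGLN minus RGS5, 97 genes were higher (1.97%) and 78 lower (1.58%). ACTA2, CCL19, WFDC1, MYF6 and C4A were steepest toward TAGLN. WFDC1 was the firmest, with 0.19 ± 0.027 (limma adjusted p = 5.0e-05). TRNP1, LXN, STEAP4, LPAR6 and GTPBP8 were steepest toward RGS5, led by TRNP1 at -0.17 ± 0.033 (limma adjusted p = 0.0049). CCL19, MYF6, C4A, STEAP4 and LPAR6 lay near the threshold (limma adjusted p from 0.043 to 0.050) and each lost its call with some single pigs left out. Over probe sets, the 212 higher (1.77%) and 156 lower (1.3%) became 40 and 15 without pig 5, 579 and 482 without pig 19, and 712 and 552 without pigs 12 and 19.

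A list's score is the mean of its tested genes, each standardised over the pigs. All 3 markers were correlated with the endothelial score. With the 20 endothelial genes, r was 0.578 for RGS5 (95% interval 0.378 to 0.727, n = 59, adjusted permutation p = 6.75e-05), 0.509 for TAGLN (0.290 to 0.677, adjusted permutation p = 0.00027) and 0.474 for ACTA2 (0.248 to 0.651, adjusted permutation p = 0.00099). Spearman's rho was 0.381, 0.538 and 0.534. Without pigs 21 and 72, r for RGS5 was 0.413. None of the 3 differences between these correlations passed the threshold: RGS5 exceeded ACTA2 by 0.104 with a 95% interval of the difference, taken as ACTA2 minus RGS5, from -0.457 to 0.249.

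**Figure D3:**
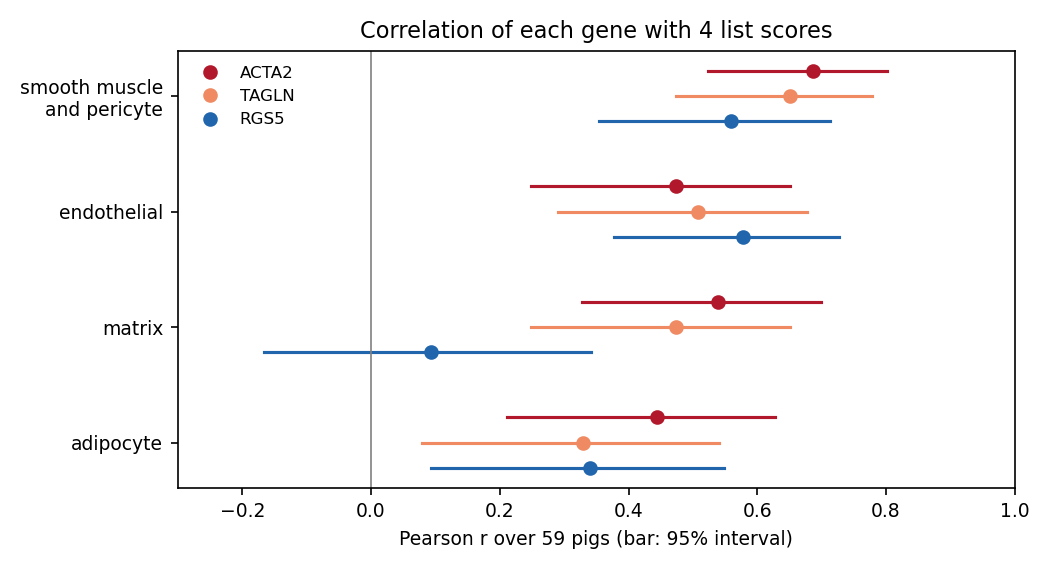
Pearson r of ACTA2, TAGLN and RGS5 with 4 list scores over 59 pigs (points), with 95% intervals (bars) and a vertical line at 0. The 3 genes lie close together for the endothelial score. For the matrix score RGS5 has the lowest r, 0.094, and its interval overlaps those of ACTA2 and TAGLN.

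By gene, more endothelial genes passed the adjusted threshold with RGS5, while unadjusted counts were close. Of 20, 9 were called higher with RGS5, 3 with ACTA2 and 3 with TAGLN, and none lower. Of all genes, 2.01%, 3.15% and 2.9% were called higher. At an unadjusted p under 0.05 there were 12, 11 and 13 of the 20. Median slopes were 0.072, 0.068 and 0.085, and 19 of the 20 slopes were above 0 with each marker. Those called with RGS5 were CDH5, ERG, CAV1, EFNB2, CLDN5, ESAM, ICAM2, EGFL7 and GPIHBP1. Of these, only CDH5 kept its call without pigs 21 and 72. Without pig 72 alone, 4 were called with RGS5, and without pigs 12 and 19 the 3 called with TAGLN became 7. ERG, an endothelial transcription factor, had a slope of 0.14 ± 0.030 on RGS5 (limma adjusted p = 0.0031), and CLDN5, a tight junction protein, 0.15 ± 0.041 (0.031). Both were highest in pig 21. The defining endothelial genes TEK and VWF were called with no marker (lowest limma adjusted p = 0.098 on TAGLN and 0.064 on ACTA2, respectively). KDR, FLT1 and TIE1 had means of 4.22, 4.79 and 5.69 and fell below the filter on dim probe sets.

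With ACTA2 and TAGLN the called endothelial genes were PECAM1, RAMP2 and CAV1. PECAM1, an adhesion molecule of endothelial junctions, had slopes of 0.16 ± 0.029 on both ACTA2 and TAGLN (limma adjusted p = 0.00015 and 0.00017) and ran from 8.35 in pig 66 to 9.80 in pig 21. RAMP2, a partner of the adrenomedullin receptor, had 0.11 ± 0.022 and 0.12 ± 0.022. On RGS5, PECAM1 had a slope of 0.11 with adjusted p = 0.053. CAV1, the main protein of caveolae, was called with all 3 markers by its brightest probe set only. Its second probe set was called with RGS5 (limma adjusted p = 0.033) but not with ACTA2 (0.40) or TAGLN (0.26). The dimmest was called with ACTA2 (0.0072) and TAGLN (0.0011) but not with RGS5 (0.082). Of the 20 genes, GPIHBP1, which holds lipoprotein lipase on capillary endothelium, followed RGS5 more than TAGLN (-0.056 ± 0.016, limma adjusted p = 0.043), and none passed for ACTA2 against RGS5 by limma (4 at an unadjusted p under 0.05).

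Matrix genes gave the only difference between markers, of the 12 tested, that passed the threshold. With the score of 30 matrix genes, r was 0.539 for ACTA2 (95% interval 0.328 to 0.699, n = 59, adjusted permutation p = 0.000108) and 0.474 for TAGLN (0.248 to 0.651, adjusted permutation p = 0.000506). For RGS5 it was 0.094 (-0.166 to 0.342, adjusted permutation p = 0.629). Spearman's rho was 0.459, 0.370 and 0.130. The difference between ACTA2 and RGS5 was 0.445 (95% interval 0.103 to 0.787, adjusted permutation p = 0.0203). It rested on few pigs: without pigs 19 and 16, the 2 farthest on that difference, it was 0.292 (adjusted permutation p = 0.129), and with ranks in place of values it was 0.329 (0.134). Without pig 19 alone it was 0.340 (0.0767). The difference between TAGLN and RGS5 was 0.381 with adjusted permutation p = 0.0541.

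Of 24 genes of the interstitial matrix, 10 were called higher with ACTA2, 7 with TAGLN and none with RGS5 by limma (2 at an unadjusted p under 0.05). Median slopes were 0.14, 0.12 and 0.011, and 3.15%, 2.9% and 2.01% of all genes were called higher. On ACTA2, 22 of the 24 slopes were above 0. Of the defining matrix genes, COL1A2, DCN and LUM were called with no marker. Their slopes on ACTA2 were 0.015, 0.055 and 0.15 (limma adjusted p = 0.90, 0.54 and 0.18). COL3A1 had a mean of 5.80, below the filter, and COL1A1 was not named in the annotation used. BGN, the proteoglycan biglycan, ran from 7.84 in pig 66 over a median of 8.51 to 9.73 in pig 44, with pig 19 at 9.34 and pig 12 at 9.13. Its slope was 0.22 ± 0.033 on ACTA2 (limma adjusted p = 2.6e-06) and 0.23 ± 0.032 on TAGLN (6.1e-07). FN1, fibronectin, had 0.24 ± 0.057 on ACTA2 (0.0060) and was highest in pig 19 at 12.01. COL5A1, a collagen V chain, had 0.17 ± 0.033 on ACTA2 (0.00029), and was also called on ACTA2 minus RGS5 with 0.12 ± 0.025 (limma adjusted p = 0.0077).

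MGP, which guards vessel walls against calcification, COL6A3, a collagen VI chain, and FBLN1, fibulin 1, were called with both ACTA2 and TAGLN. COL6A2, FBN1, SPARC and CCDC80 were called with ACTA2, and SERPINH1, the collagen chaperone, with TAGLN. The calls of SERPINH1 and COL6A3 with TAGLN lay at the threshold (limma adjusted p = 0.0496 and 0.0488) and were lost when any of 44 and any of 34 single pigs, respectively, was left out. FN1, FBLN1 and, with ACTA2, MGP, COL6A2, FBN1, SPARC and CCDC80 lost their calls without pigs 12 and 19. Without these pigs the matrix genes called with ACTA2, basement membrane included, went from 11 to 4. Without pig 19 alone they were 5, and those called with TAGLN went from 9 to 5.

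Basement membrane genes were called with each marker. Of 6, 1 was called with ACTA2, 2 with TAGLN and 1 with RGS5, beside 3.15%, 2.9% and 2.01% of all genes called higher. COL4A2, a collagen IV chain, had a slope of 0.15 ± 0.029 on ACTA2 (limma adjusted p = 0.00032) and 0.15 ± 0.028 on TAGLN (0.00020). LAMC1, a laminin chain, was called with TAGLN, and LAMB1, another laminin chain, with RGS5 (0.12 ± 0.025, limma adjusted p = 0.0034). The LAMC1 call was lost with the mean of its probe sets and when any of 4 single pigs was left out. It was also lost given the first principal component of the probe sets not named to a list gene. The LAMB1 call was lost without pigs 21 and 72.

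**Figure D4:**
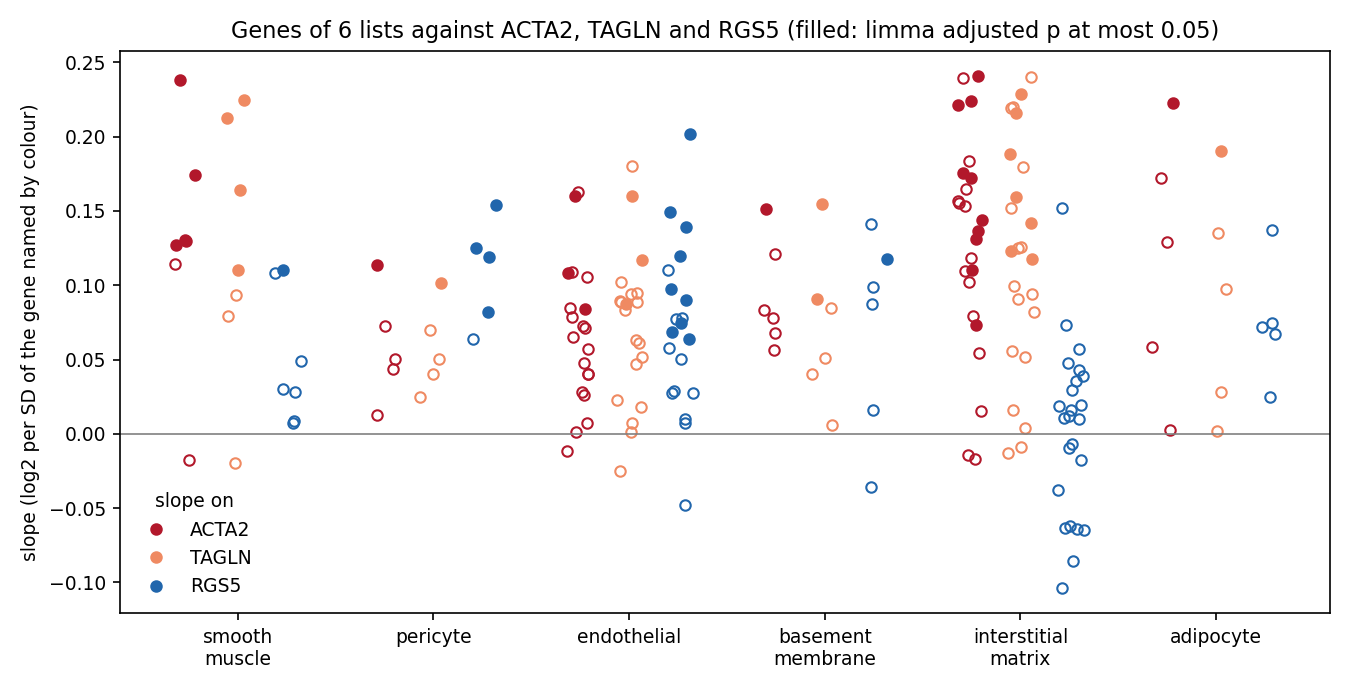
Slope of each tested gene of 6 lists on ACTA2, TAGLN and RGS5 (log2 per SD of the gene named by colour), 1 point a gene and marker, filled where limma's adjusted p was at most 0.05, with sideways scatter only to separate points. RGS5 has filled points for 9 endothelial, 4 pericyte, 1 smooth muscle and 1 basement membrane gene and none in the interstitial matrix, where ACTA2 has 10 and TAGLN 7.

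With the score of 5 adipocyte genes, r was 0.444 for ACTA2 (95% interval 0.212 to 0.628, n = 59, adjusted permutation p = 0.000999), 0.341 for RGS5 (0.092 to 0.549, adjusted permutation p = 0.0203) and 0.329 for TAGLN (0.080 to 0.540, adjusted permutation p = 0.0212). Spearman's rho was 0.412, 0.371 and 0.255. Without the filter on dim probe sets the last 2 calls were lost, with r = 0.200 for RGS5 (adjusted permutation p = 0.232) and 0.281 for TAGLN (0.0581). The call for TAGLN was also lost without pigs 19 and 12 (r = 0.265, adjusted permutation p = 0.0942), without either pig 19 or pig 44 alone, and by rank (adjusted permutation p = 0.107). By gene, limma called FABP4 with ACTA2 (0.22 ± 0.052, adjusted p = 0.0050) and with TAGLN (0.19 ± 0.054, 0.035), the latter call being lost when any of 7 single pigs was left out. Limma called none of the 5 with RGS5 (2 at an unadjusted p under 0.05). Over all genes, 3.15%, 2.9% and 2.01% were called higher with ACTA2, TAGLN and RGS5. FABP4 carries fatty acids in adipocytes and also in capillary endothelium. It ran from 9.92 in pig 35 to 11.77 in pig 44.

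Without FABP4 the adipocyte score had r = 0.343 with ACTA2 (adjusted permutation p = 0.0191), 0.293 with RGS5 (0.0554) and 0.232 with TAGLN (0.136). LEP, the hormone leptin, had r of 0.015 with ACTA2, 0.142 with RGS5 and 0.012 with TAGLN. CFD, the adipocyte protease adipsin, had 0.239, 0.307 and 0.115. Only 5 of the 11 adipocyte genes on the array passed the filter on dim probe sets. Of 7 genes of fat synthesis, limma called none with ACTA2, TAGLN or RGS5 (3, 1 and 0 at an unadjusted p under 0.05), and FASN, fatty acid synthase, had r of 0.301, 0.326 and 0.032.

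Of 11 genes that carry signals between endothelium and mural cells, 2 were called with ACTA2, 2 with TAGLN and 1 with RGS5. The shares of all genes called higher were 3.15%, 2.9% and 2.01%. JAG1 had slopes of 0.20 ± 0.024 on ACTA2 (limma adjusted p = 6.9e-09) and 0.19 ± 0.024 on TAGLN (7.6e-08). TGFB3, a transforming growth factor, had 0.18 ± 0.027 (3.1e-06) and 0.17 ± 0.029 (3.7e-05), and followed ACTA2 more than RGS5 (0.093 ± 0.025, limma adjusted p = 0.039). S1PR1, the endothelial receptor for sphingosine 1-phosphate, was the one called with RGS5 (0.14 ± 0.026, limma adjusted p = 0.00095). It was highest in pig 72, and its call was lost without pigs 21 and 72.

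Of 10 other actins, calponins, transgelins and RGS genes, 2 were called with ACTA2, 1 with TAGLN and 1 with RGS5, where 3.15%, 2.9% and 2.01% of all genes were called higher. CNN3, the acidic calponin of non-muscle cells, had 0.16 ± 0.026 on ACTA2 (limma adjusted p = 3.4e-05) and 0.17 ± 0.024 on TAGLN (6.4e-07). ACTB, beta-actin, was called with ACTA2 (0.13 ± 0.036, 0.031), but not without pigs 12 and 19. RGS4, which acts on the same class of G proteins, was the only relative called with RGS5 (0.14 ± 0.033, limma adjusted p = 0.0095), a call lost without pig 72 (adjusted p = 0.060), while RGS2 and RGS16 had r of -0.043 and -0.107 with RGS5. TAGLN2 had r = 0.325 with TAGLN and 0.185 with ACTA2, and ACTC1, the cardiac alpha-actin, had r = 0.279 with ACTA2. Whether the ACTA2 probe set also binds transcripts of other actins was not tested.

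Of 7 further genes that serum response factor and its coactivators are known to drive, FLNA, ACTN1 and FHL2 were called with both ACTA2 and TAGLN. By limma none was called with RGS5 (3 at an unadjusted p under 0.05). Across all genes, 3.15%, 2.9% and 2.01% were called higher with ACTA2, TAGLN and RGS5. TPM1, a tropomyosin made in skeletal and smooth muscle, depended on the probe set. Its brighter probe set lay near the top of the scale, where differences shrink (mean 14.40, SD 0.068), and had r = -0.118 with TAGLN. Its dimmer probe set ranged from 9.79 over a median of 10.31 to 11.56, and had r = 0.861 with TAGLN and 0.827 with ACTA2. Its slopes were 0.30 ± 0.023 on TAGLN (limma adjusted p = 3.0e-15) and 0.29 ± 0.026 on ACTA2 (7.2e-13), and its r with the brighter probe set was 0.091. The dimmer probe set was singled out after its values were seen.

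**Figure D5:**
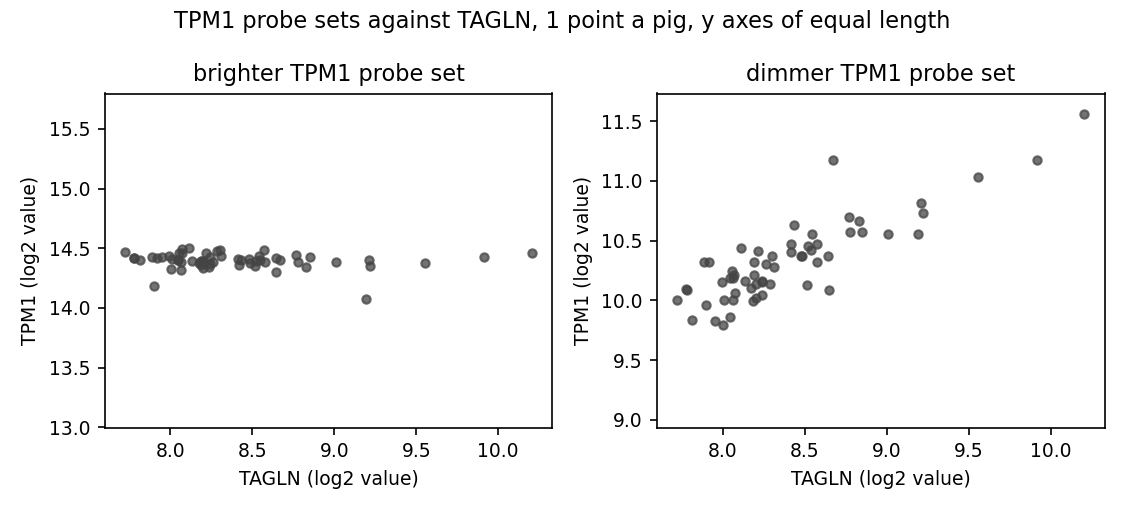
The 2 TPM1 probe sets (y axes, log2 value, of equal length) against TAGLN (x axes, log2 value), 1 point a pig. The brighter probe set is flat near 14.40, and the dimmer one climbs with TAGLN up to 11.56 (r = 0.861).

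Genes that followed ACTA2 and TAGLN unequally included many stress genes. On ACTA2 minus TAGLN, 373 genes were higher (7.57%) and 502 lower (10.2%), where lower means following TAGLN more. The widest difference of the 2 standardised genes was -1.37, in pig 36. A unit of this difference is therefore a large step, and these slopes cannot be compared in size with those above. Of 14 heat shock genes, 12 were called lower, and of 13 immediate early genes 3, none of either list being higher. Yet limma called none of the 14 with ACTA2 or TAGLN alone (0 and 1 at an unadjusted p under 0.05). The steepest toward TAGLN were NR4A3, GADD45A, HSPA6, ATF3 and CKS2. GADD45A, a growth arrest gene, had -1.39 ± 0.26 (limma adjusted p = 0.00052), and ATF3, a stress transcription factor, -1.21 ± 0.30 (0.0041). The steepest toward ACTA2 were PPP1R3B, FBXL4, RIPOR2, ARPP21 and ANKRD44, led by PPP1R3B, a glycogen-targeting subunit of protein phosphatase, at 1.04 ± 0.22 (limma adjusted p = 0.0013).

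HSPA6, a stress-induced chaperone, ran from 6.50 over a median of 7.86 to 13.60 in pig 36, the pig with the widest gap between TAGLN and ACTA2. Its call was lost without that pig. The first principal component of the genes in no list held 20.0% of their variance and moved with the heat shock score (r = 0.861, rho = 0.842, r = 0.837 without the 2 farthest pigs, n = 59, permutation p = 1e-05, adjusted p = 8e-05 over 8 such relations). It had r = 0.197 with TAGLN and -0.026 with ACTA2. With that component as a covariate, limma called none of the probe sets on ACTA2 minus TAGLN (1330 at an unadjusted p under 0.05), where 869 had been called higher (7.24%) and 1107 lower (9.23%) without it. RIPOR2 and ANKRD44 turned direction under it, to slopes of -0.067 and -0.036. The part of this component in the difference between ACTA2 and TAGLN was not tested further.

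Markers of other cells and of fibre types are read beside the 3.15%, 2.9% and 2.01% of all genes called higher with ACTA2, TAGLN and RGS5. By limma, none of 9 macrophage genes was called with ACTA2, TAGLN or RGS5 (1, 0 and 0 at an unadjusted p under 0.05), and none of 2 nerve and Schwann cell genes (1, 1 and 0). Of 8 fast fibre genes limma called none (0, 0 and 2). Apart from TNNT3 and ATP2A1, these had means from 14.50 to 14.79 and SDs from 0.029 to 0.056. That is near the highest value of 15.04, where differences shrink, so this count cannot decide whether fast fibre genes follow the markers. Of 7 slow fibre genes, 2 were called higher with RGS5, and limma called none with ACTA2 or TAGLN (0 for both). MYL3, a slow myosin light chain, had 0.17 ± 0.039 on RGS5 (limma adjusted p = 0.0063), and ATP2A2, the slow calcium pump, 0.091 ± 0.026 (0.044). All 7 slow fibre slopes on RGS5 were above 0, each at an unadjusted p under 0.05. Pig 72, the second highest for RGS5, was the highest pig for all 7 slow fibre genes and the lowest for 6 of the 8 fast ones. Without pig 72, 1 slow fibre gene was called with RGS5, and without pigs 21 and 72 limma called 0 (2 at an unadjusted p under 0.05). The part of the slow fibre genes in the endothelial relations of RGS5 was not tested.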

How the data were processed

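Total RNA of 59 muscles was labelled with biotin and hybridised to 1 array a pig. Per the submitters' processing notes, the deposited values come from GCRMA, with no version given. The deposited values lay between 2.39 and 15.04 and were read as log2, although the notes name no log base. GCRMA draws dim signals together and bright ones lie near the scanner's ceiling, which both shrink differences. Precision is limited by how many arrays there are.

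Of 24123 probe sets, 124 were controls and left out. Of 64 further reporter-gene probe sets, 1 was bright enough to be tested and it was not called. The annotation gave 10099 probe sets 1 symbol, 198 several and 13826 none, and 9989 symbols were updated. Probe sets with a mean of at least 6.27 were tested, 12000 in all, and the brightest stood for its gene. ACTA2, RGS5 and TAGLN each had 1 probe set. Of 17 gene lists with 292 genes, 200 were on the array and 156 tested.

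Slopes were fitted with limma 3.58.1 (lmFit, eBayes) in R 4.3.3 over all tested probe sets, leaving out the gene regressed on, with Benjamini-Hochberg adjustment. Correlations used two-sided permutation tests of 100000 resamples (Python 3.11.15, scipy 1.17.1). Scripts were tested on simulated data. Named genes were the 8 most like and 4 most opposed to each marker by Pearson r, the 5 steepest each way for each difference, tested genes of the vascular, matrix, fat, signalling, family and serum response lists, and up to 3 of each other list. The 3 genes and the lists were chosen with earlier results of these data known. The labels name 59 separate animals. Alternatives were the mean of a gene's probe sets, no filter, quantile normalization, the first principal component as a covariate, leaving out the 2 extreme pigs and each pig. Spearman's rho as the measure, leaving out pigs 12 and 19, the list counts, and the adipocyte score without FABP4 were chosen after seeing the data.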

Additional observations from a re-analysis of the deposited data

How the results depend on the processing

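No paired analysis was possible because the pigs form 1 group and carry no shared replicate numbers. The members' levels could not be set against another probe set, since each has 1. Counts below are of probe sets unless genes are named, and the cause of each change was not tested.

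The relation of ACTA2 with TAGLN, those of all 3 genes with the endothelial and the smooth muscle and pericyte scores, and those of ACTA2 and TAGLN with matrix kept direction and side of the threshold in each alternative tried. Without the filter, r with the adipocyte score was 0.200 for RGS5 and 0.281 for TAGLN, neither past the threshold. For TAGLN that call was also lost without the extreme pigs, which are 12 and 19 (0.265), by Spearman (0.255) and without pig 19 or pig 44 alone, within a range of 0.256 to 0.371 over single pigs left out. Without FABP4 it was lost for RGS5 (0.293) and TAGLN (0.232).

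The matrix difference of ACTA2 over RGS5 (0.445) lost its call without the extreme pigs (0.292), by Spearman (0.329) and without pigs 12 and 19 (0.366), and ran from 0.340 to 0.486 with single pigs left out. That of TAGLN over RGS5 (0.381) passed when a gene's probe sets were averaged (0.389), with no filter (0.402) and given the first principal component (0.451), and ran from 0.264 to 0.426. The matrix difference of ACTA2 over TAGLN passed without the extreme pigs (0.116; single pigs 0.040 to 0.122), and the adipocyte one with no filter (0.137; single pigs 0.082 to 0.143).

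For ACTA2, 169 higher and 18 lower were called without pigs 12 and 19, 28 lower after quantile normalization and 43 lower given the principal component. With single pigs left out they ran from 194 to 485 higher and from 5 to 31 lower. For RGS5, 72 higher were called without the extreme pigs and 48 lower without the filter, with 121 to 264 higher and 31 to 134 lower over single pigs. For TAGLN, 690 higher and 459 lower were called without pigs 12 and 19, and 9 lower given the principal component, with 6 to 72 lower over single pigs.

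On ACTA2 minus RGS5, 20 higher and 9 lower were called without pigs 12 and 19 and 83 lower after quantile normalization, with 24 to 206 and 11 to 108 over single pigs. On TAGLN minus RGS5, the higher calls were 131 after quantile normalization, 88 given the principal component, 651 without the extreme pigs and 712 without pigs 12 and 19. The lower calls were 103 without the filter, 34, 482 and 552 in the last 3 of these settings, with 40 to 579 higher and 15 to 482 lower over single pigs. On ACTA2 minus TAGLN, limma called 0 higher and 0 lower given the principal component (1330 at an unadjusted p under 0.05) and 686 lower without the extreme pigs, with 420 to 1170 and 543 to 1389 over single pigs.

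Endothelial genes called with RGS5 were 1 without its extreme pigs and 4 to 11 over single pigs, and with TAGLN 7 without pigs 12 and 19 and 3 to 7 over single pigs. Matrix genes called were 4 with ACTA2 without pigs 12 and 19 (single pigs 5 to 13) and 5 to 10 with TAGLN over single pigs. With RGS5 they were 2 after quantile normalization or given the principal component, 0 of 30 without the extreme pigs by limma (5 at an unadjusted p under 0.05), and 1 to 2 over single pigs. Adipocyte genes called with ACTA2 were 3 without the filter and 2 given the principal component, and with TAGLN 0 after quantile normalization by limma (1 at an unadjusted p under 0.05) and 0 to 1 over single pigs. Smooth muscle and pericyte genes called with RGS5 were 3 without the filter or the extreme pigs (single pigs 3 to 5), and with ACTA2 3 to 7 over single pigs.

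The slopes of RIPOR2 (-0.067) and ANKRD44 (-0.036) on ACTA2 minus TAGLN turned negative given the principal component, and that of TPM1 on TAGLN turned positive with the mean of its probe sets (0.14). Signal over background limits LEP, KCNJ8 and other genes near the filter, whose differences GCRMA compresses.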

Other observations

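Some pigs recurred at the ends of the named genes. Pig 66 was lowest for CDH5, PECAM1, ERG, CLDN5, RAMP2, PDGFRB, GUCY1B3, LXN, TSPAN13 and BGN, and pig 21 was highest for CDH5, PECAM1, ERG, CLDN5, RAMP2, PDGFRB and LXN. Many of these genes were called with RGS5, for which pig 66 was 58th and pig 21 highest, so such extremes are partly built in. Pig 66 was highest for THBS2 (11.53) and CKM. Its endothelial score (-1.507) was not the lowest: pig 20 had -1.598 and pig 69 -1.543. The share over all genes was not counted.

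Probe sets of 1 gene also differed for ACTG1, cytoplasmic gamma-actin. Its brightest probe set had r = 0.027 with ACTA2, but lay near the highest value of 15.04, where differences shrink (mean 14.98, SD 0.014). The next one, with a mean of 12.11, had r = 0.567 with ACTA2 and 0.584 with TAGLN, and slopes of 0.14 ± 0.026 (limma adjusted p = 0.00037) and 0.14 ± 0.026 (0.00020). A second TIMP2 probe set had r = 0.416 with ACTA2 where the brightest had -0.068. These were singled out after their values were seen.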
